A study of Gallus gallus with 2 samples.

Results

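The genes described here make, break down, bind or sense retinoic acid. They were chosen by symbol: every probe set whose symbol in the platform annotation is ALDH1A2, ALDH1A3, CYP26A1, CYP26B1, CYP26C1, RARA, RARB, RARG or CRABP1. Of these 9 genes, 8 were matched to 15 of the 38535 probe sets on an Affymetrix chicken array. RARG was not matched to a probe set and was not analysed here. The series holds 2 arrays of GFP-positive cells sorted from the neural tube of chicken embryos. The knockdown array is 1 sample that received the plasmids pSuper-neo-GFP-Sox4-shRNA and pSuper-neo-GFP-Sox11-shRNA together, and the control array is 1 sample that received pSuper-neo-GFP without a hairpin. In both, electroporation was at Hamburger-Hamilton stage (HH) 9 and harvest at HH11, per the labels, which also name an incubation of 2 days. Hairpins act only in cells that took up a plasmid, and the labels do not say how many embryos were pooled.

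Retinoic acid is made from vitamin A. Retinol is first oxidised to retinaldehyde, and retinaldehyde dehydrogenases of the ALDH1A family then oxidise it to retinoic acid. Cytochrome P450 enzymes of the CYP26 family clear it, the cytosolic protein CRABP1 binds it, and retinoic acid receptors (RARs), paired with retinoid X receptors, bind DNA and act as ligand-dependent transcription factors. In the early embryo, retinoic acid from the somites beside the neural tube patterns the hindbrain and spinal cord and favours neuronal differentiation, while FGF and Wnt signals of the caudal end oppose it.

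Values are MAS5 signal intensities on a linear scale. Background was set at the 95th percentile of 687 viral probe sets, which is a signal of 65.8 on the knockdown array and 63.6 on the control array. A probe set was called measured where its mean log2 signal over both arrays reached the median of chicken probe sets, equal to a signal of 118. The brightest probe sets of both targets had lower signal in the knockdown, with 3157 against 6604 in the control for SOX4 and 2790 against 4552 for SOX11, and the other probe set of each lay below background on both arrays. All 15 matched neural progenitor markers were above background on both arrays, as were 16 of 17 matched neuron markers. For actin, an array control with probe sets at both ends of its transcript, signal at the 3′ end over the 5′ end was 1.85 in the knockdown and 5.45 in the control, while the same ratio for GAPDH was 1.05 in the knockdown and 1.25 in the control. With 1 array a group there is no replicate spread, so no difference below was tested, and "higher" and "lower" describe these 2 arrays. In sorted cells measured in bulk, fewer cells of a type and less RNA per cell cannot be told apart.

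Across the pathway, the brightest probe sets of the 7 measured genes lay within 1.5-fold between the arrays, as did 82.9% of all measured genes; 9 of their 11 measured probe sets did so, against 77.4% of all measured chicken probe sets. Their log2 ratios (knockdown over control) ran from -0.33 for CRABP1 to 0.49 for ALDH1A2. Of the 15 probe sets, 11 were measured, and 2 of them were at least 2-fold higher in the knockdown, against 5.56% of all measured chicken probe sets. None of the 11 was at least 2-fold lower, against 1.33% of all. The 2 higher probe sets were fainter ones, of ALDH1A2 and RARB. One of them, for RARB, passed the filter on low signal through its value on the knockdown array. The median log2 ratio was -0.08 over the 7 measured members and 0.02 over all 9303 measured genes, of which 4850 were above 0 and 4452 below.

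**Figure D1:**
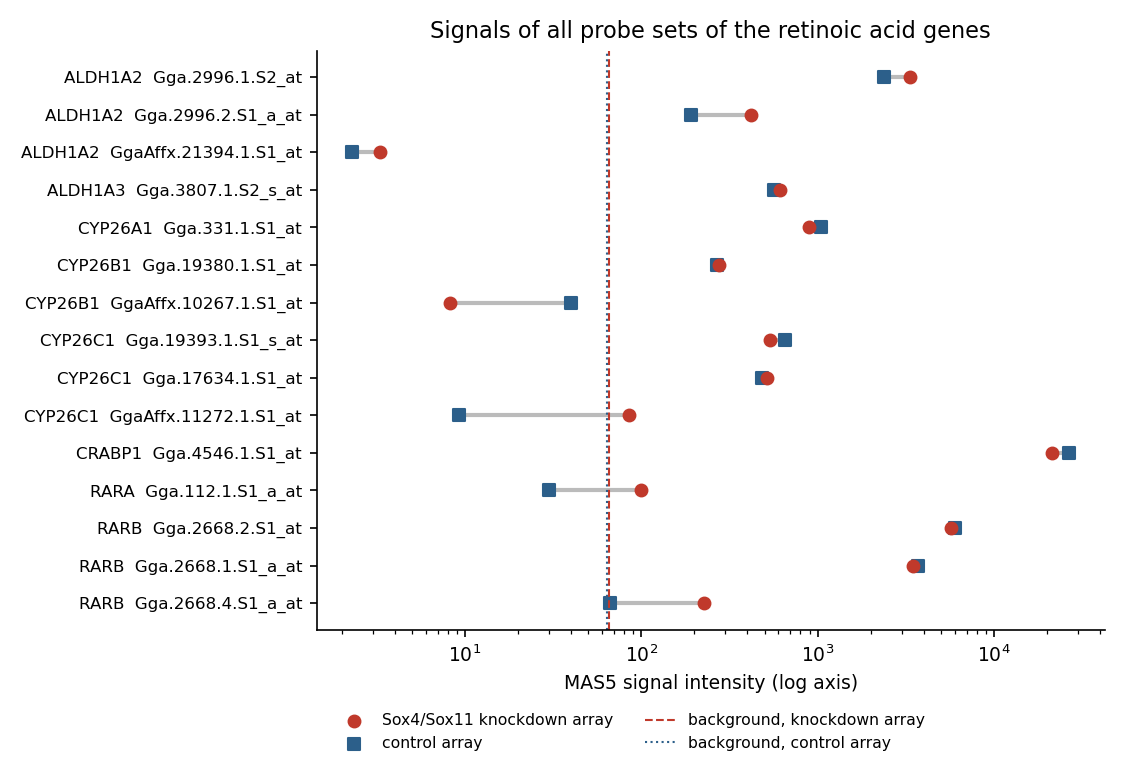
MAS5 signal (log axis) of each of the 15 probe sets on the knockdown array (circles) and on the control array (squares), with the background of each array as a vertical line; gene and probe set are named at the left. Pairs of symbols lie close together for most bright probe sets and apart for the faint ones, among them the faintest RARB probe set (228 in the knockdown and 66.6 in the control).

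ALDH1A2 (Entrez gene 395844), the main retinoic acid-making enzyme of the trunk mesoderm, had the largest difference as deposited among the brightest probe sets of the 7 measured members. With median centring it was at 0.24, and CRABP1 (-0.57), CYP26C1 (-0.52), CYP26A1 (-0.47) and RARB (-0.32) differed more. The brightest probe set of ALDH1A2 had a signal of 3326 in the knockdown and 2368 in the control, a log2 ratio of 0.49 (1.40-fold). A fainter probe set had 417 in the knockdown and 192 in the control, a log2 ratio of 1.12 (2.17-fold). Both measured probe sets were thus higher on the knockdown array. Among all chicken probe sets of like signal (20 equal groups of mean signal), the bright one lay at percentile 90.6 of log2 ratios and the fainter one at percentile 93.8. The third was below background on both arrays, with 3.3 in the knockdown and 2.3 in the control, and gives no fold.

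ALDH1A2 is known from somites and also from spinal motor neurons, so markers of both were read beside it. Of 20 somite and paraxial mesoderm markers, 16 were matched and 12 measured, with 6 above and 6 below a log2 ratio of 0 and a median of 0.03. MYF5, a regulator of early muscle, had the highest log2 ratio of these (1.33), and FOXC2, a paraxial mesoderm factor, the lowest (-0.73). MYF5 had 272 in the knockdown and 108 in the control, which is under the filter signal of 118. It passed the filter through its knockdown value, where it is high. The summed signal of the 12 was 34883 in the knockdown and 40783 in the control, most of it from LFNG, a Notch modifier that neural tissue also uses. LFNG alone had 29367 in the knockdown and 35691 in the control. That difference is larger than the difference of the sums, so the other markers together were not lower. RIPPLY1 and TBX18 were below background on both arrays. Neuron markers, 16 measured of 20 listed, had a median log2 ratio of -0.84, with 14 below 0 and 2 above. Their summed signal was 48154 in the knockdown and 87425 in the control. Of all 9303 measured genes, 4452 were below 0. CHAT had 102.7 in the knockdown, under the filter signal of 118, and passed through its control value of 185.6. With CHAT left out, the middle neuron marker is NEFL (-0.83). ISL1, a motor neuron factor, had a log2 ratio of -1.41. The 2 above 0 were the motor neuron factors LHX3 (0.24) and MNX1 (0.09). The part of these somite and neuron markers in the signal of ALDH1A2 was not tested.

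ALDH1A3 (Entrez gene 395389), a related dehydrogenase known from the eye and from surface ectoderm, was nearly even. Its only probe set had 615 in the knockdown and 563 in the control, a log2 ratio of 0.13. That lies near the middle of probe sets of like signal, at percentile 53.5. The direction turned to -0.12 with median centring and was below 0 with quantile normalization and loess centring too. Surface ectoderm and placode markers, 15 matched of 20 and 11 measured, had 8 log2 ratios above 0 and 3 below, with a median of 0.17 and a summed signal of 14094 in the knockdown and 12107 in the control. All 9303 measured genes had 4850 above 0 and 4452 below. KRT7, an epithelial keratin, was highest among them (2.04) and PAX2 lowest (-1.08). ESRP2, an epithelial splicing regulator, was at 1.93, with 673.5 in the knockdown and 176.8 in the control. ESRP1, another such regulator, was below background on both arrays. Whether these cells contribute to ALDH1A3 signal was not tested.

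The CYP26 enzymes, which oxidise retinoic acid and so limit where it acts, had no measured probe set past 1.5-fold. CYP26A1 (Entrez gene 408183), itself switched on by retinoic acid in many vertebrate tissues, had 889 in the knockdown and 1041 in the control, a log2 ratio of -0.23 at percentile 24.4 of probe sets of like signal. CYP26B1 (Entrez gene 428809), known from hindbrain segments and limb buds, had 276 in the knockdown and 268 in the control with its bright probe set, a log2 ratio of 0.05. These are small differences next to the spread among probe sets of like signal. The other probe set of CYP26B1 was below background on both arrays, with 8.2 in the knockdown and 39.8 in the control.

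CYP26C1 (Entrez gene 423806), a hindbrain family member, had measured probe sets that pointed in opposite directions. The brightest, whose name marks its probes as shared by several transcripts, had 538 in the knockdown and 650 in the control, a log2 ratio of -0.27. The next had 520 in the knockdown and 482 in the control, a log2 ratio of 0.11, which was below 0 with median centring, quantile normalization and loess centring. No direction for CYP26C1 follows from this pair. The faintest probe set had 85.7 in the knockdown and 9.3 in the control, where it was below background, so it was at least 1.35-fold higher. Of all chicken probe sets, 7.51% were above background on the knockdown array only and 4.55% on the control array only.

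In the RefSeq annotation of the assembly GRCg7b, CYP26A1 and CYP26C1 are neighbours with no annotated gene between them, and the span of CYP26C1 overlaps that of EXOC6, a subunit of the exocyst complex. The brightest probe set of EXOC6 had 1171 in the knockdown and 1498 in the control, a log2 ratio of -0.35. The list of hindbrain markers, 9 matched of 14 and 8 measured, also holds genes not limited to hindbrain segments: EN1 (-0.68), GBX2 (-0.66) and PAX2. The 8 had a median log2 ratio of -0.57, with 6 of 8 below 0. Their summed signal was 16833 in the knockdown and 26667 in the control. Of all 9303 measured genes, 4452 were below 0. PAX2, which is also on the list of surface ectoderm and placode markers, had the lowest log2 ratio (-1.08). HOXB1, which marks a hindbrain segment, had 4455 in the knockdown and 8924 in the control by its only measured probe set. Fainter HOXB1 probe sets had 224.6 and 117 in the knockdown against 25.9 and 30.4 in the control, both control values below background. Another had 74.9 in the knockdown and 120.8 in the control, and the last was below background on both arrays. HOXB2, a neighbouring HOX gene, was higher (1.01), as was EPHA4 (0.97), with 270.2 in the knockdown and 137.5 in the control. HOXA2 (-0.31) and IRX1 (-0.47) were lower. With EN1, GBX2 and PAX2 left out, the middle gene of the list is HOXA2. The part of these markers in the CYP26 signals was not tested.

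CRABP1 (Entrez gene 374211), a cytosolic retinoic acid-binding protein known from hindbrain, neural crest and young neurons, had the lowest log2 ratio of the measured members as deposited. Its single probe set had 21256 in the knockdown and 26657 in the control, a log2 ratio of -0.33 (1.25-fold lower). Among probe sets of like signal, where ratios are narrowly spread, it lay at percentile 12.8. Among all measured genes it lay at percentile 15.6. CYP26C1, by its brightest probe set, was lower than CRABP1 with quantile normalization (-0.42 against -0.29) and loess centring (-0.41 against -0.26). CRABP1 was below 0 under each scaling, from -0.57 with median centring to -0.26 with loess centring. The neuron markers described above, with a median of -0.84, were lower on the same array, and their part in this difference was not tested.

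**Figure D2:**
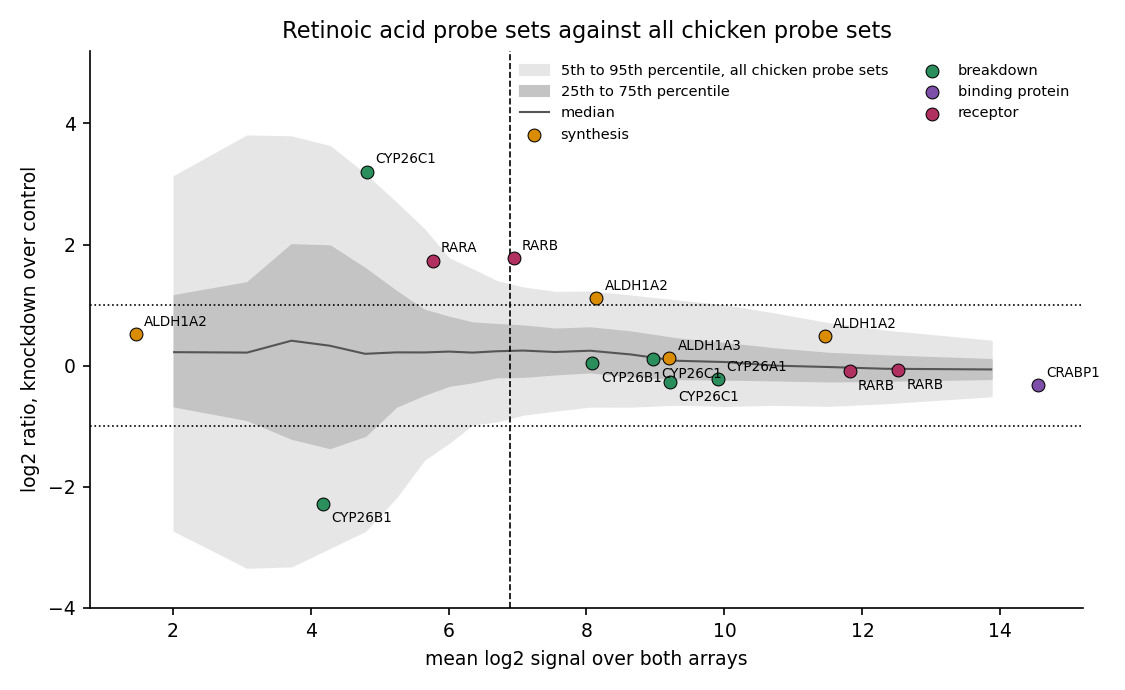
Log2 ratio of knockdown over control (vertical axis) against mean log2 signal (horizontal axis) for the 15 probe sets, coloured by role, over bands that hold the middle of all chicken probe sets in 20 signal groups; dotted lines mark 2-fold and the dashed line the filter on low signal. The bands widen to the left, and the faintest RARB probe set (1.78) is the measured probe set farthest above its band.

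RARB (Entrez gene 396266), a receptor gene that retinoic acid itself induces and that is strong in the caudal hindbrain and spinal cord, was even between the arrays on its bright probe sets. The brightest had 5710 in the knockdown and 6019 in the control, a log2 ratio of -0.08. The next had 3492 in the knockdown and 3714 in the control, a log2 ratio of -0.09. They lay at percentiles 47.4 and 42.7 of probe sets of like signal. Both bright probe sets thus differed by under 1.1-fold.

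The faintest probe set of RARB gave another picture, with 228 in the knockdown and 66.6 in the control, a log2 ratio of 1.78 (3.42-fold). The control value stands just above the background of 63.6. Its log2 ratio was at percentile 98.6 of probe sets of like signal, of which 11.1% were higher by 2-fold or more and 2.44% lower. It ranged from 1.53 to 1.78 over the scalings. Its name marks all its probes as falling in transcripts of 1 gene; which RARB transcripts it reads was not analysed here.

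RARA (Entrez gene 395213), the receptor found in most embryonic tissues, had a single and faint probe set. It had 99.4 in the knockdown and 29.9 in the control, where it was below background. It was therefore at least 1.56-fold higher, and its value on the control array is not a level. Of all genes, 5.16% were above background on the knockdown array only, as RARA was, and 3.08% on the control array only. It did not pass the filter on low signal, and of the chicken probe sets of like signal 22.9% were higher by 2-fold or more and 12.3% lower.

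Fainter probe sets of a gene were in general shifted upward against its brightest one. Over 3853 genes with several measured probe sets, the faintest minus the brightest log2 ratio had a median of 0.29, and in 12.8% of them a fainter probe set was at least 2-fold higher, against 1.45% with a fainter one at least 2-fold lower. Of the members, 3 had several measured probe sets, and in 2 a fainter one was at least 2-fold higher. For ALDH1A2 this difference was 0.63, near the middle (percentile 57.3) of the 649 genes whose faintest and brightest probe sets stood as far apart in signal, within 0.5 on the log2 scale. For CYP26C1 it was 0.38, at percentile 76.5 of 643 such genes. For RARB it was 1.85, at percentile 99.1 of 223 such genes. The faintest RARB probe set passed the filter on low signal through its knockdown value, where it is high. Neither this percentile nor its place in the count of 2 is therefore support for a change in RARB. The actin ratios given above differ widely between the same arrays and the GAPDH ratios little, and their part in this shift was not tested.

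**Figure D3:**
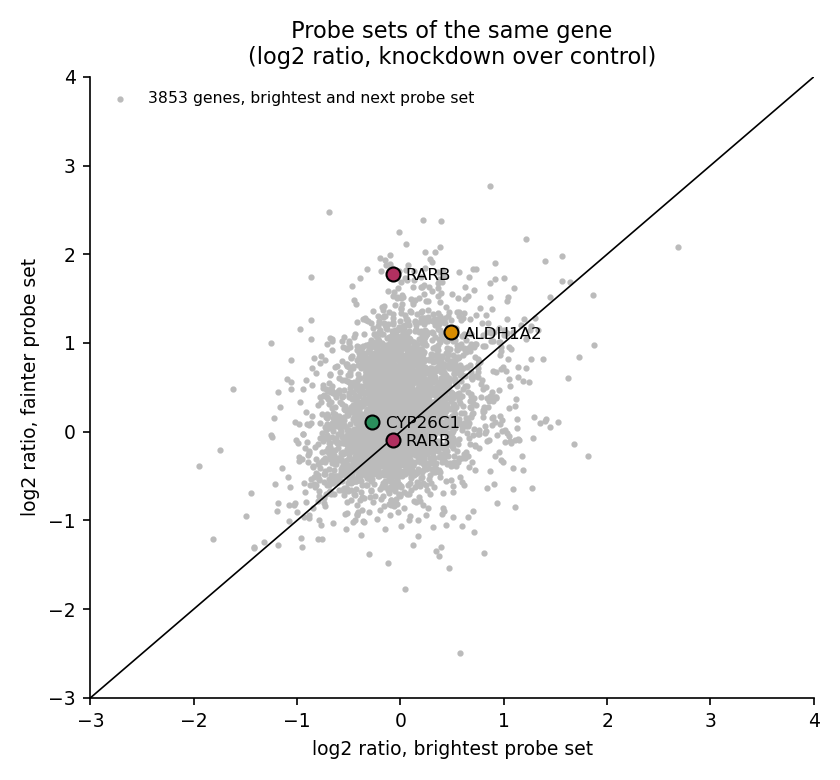
Log2 ratio (knockdown over control) of a fainter measured probe set (vertical axis) against that of the brightest one (horizontal axis), with 3853 genes in grey and the members in colour; the line marks equal values. ALDH1A2 has both values above 0 (0.49 and 1.12), and RARB has one fainter probe set on the line and one far above it (1.78).

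Of the steps before retinaldehyde dehydrogenase, RDH10 and DHRS3 were near even in their bright probe sets. RDH10, which oxidises retinol to retinaldehyde in the embryo, had 3360 in the knockdown and 3416 in the control (log2 ratio -0.02), and its other measured probe sets were at -0.09 and 0.44. DHRS3, which turns retinaldehyde back into retinol and is induced by retinoic acid, had 6322 in the knockdown and 6811 in the control (-0.11), and its other measured probe set was at -0.02. Of 24 listed enzymes of retinol and retinaldehyde, 15 were matched and 11 measured, of which 1 was at least 2-fold higher and 0 lower, against 3.64% and 1.06% of all measured genes. The 1 was CYP1B1, a cytochrome P450 that can form retinoic acid from retinol, with 261 in the knockdown and 101 in the control (1.36). Its control value is under the filter signal of 118, so it passed the filter through the knockdown array, where it is high, and the count supports nothing about the list. CYP2W1, another cytochrome P450, was lowest, with 126 in the knockdown and 238 in the control (-0.92). It was past 2-fold lower with median centring, quantile normalization and loess centring (-1.16, -1.17 and -1.16). The median of the list was 0.38, next to 0.02 over all measured genes. CYP1B1 and ADH1C entered it through their knockdown values, and with both left out the middle gene is RDH10 (-0.02). The median therefore supports nothing about the list. It was 0.13 with median centring, 0.14 with quantile normalization or loess centring and 0.11 with the mean of measured probe sets.

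Among the other enzymes, RDH14 (0.49), ADH1C (0.47), ADH4 (0.42), DHRS7 (0.40) and RDH5 (0.38) had log2 ratios above 0, and DHRS4 (-0.17) and RDH11 (-0.16) below 0. None of these 7 was past 1.5-fold, and another measured probe set of ADH4 was at -0.32. ADH1C had 102 in the control, under the filter signal of 118, and passed through its knockdown value of 142. ALDH1A1, another retinaldehyde dehydrogenase, was below background on both arrays, with 41.1 in the knockdown and 29.8 in the control.

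Genes of retinoid uptake, binding and storage were detected in part. Of 16 listed, 13 were matched and 6 measured, with 0 past 2-fold in either direction and a median log2 ratio of 0.27. The median was 0.02 with median centring, 0.14 with quantile normalization and 0.15 with loess centring. STRA6, the cell surface receptor for retinol carried by its binding protein, was even, with 761 in the knockdown and 755 in the control (0.01, and below 0 with median centring, quantile normalization and loess centring). RBP5, a cellular retinol-binding protein, had 8299 in the knockdown and 6294 in the control (0.40), and FABP5, a fatty acid-binding protein that can also carry retinoic acid, was at 0.17. TTR, which carries the retinol-binding protein in blood and is also an endoderm marker, was highest at 0.70. BCO2, a carotenoid-cleaving enzyme, was at 0.37 and RLBP1, a retinaldehyde-binding protein, at 0.10. BCO1, LRAT, RBP2, RBP3 and RBP4 were below background on both arrays.

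Receptor partners and coregulators were near even in their brightest probe sets. Of 20 listed, 18 were matched and 16 measured, and all 16 lay within 1.5-fold, next to 82.9% of all measured genes. With median centring MED1 was past 1.5-fold lower (-0.75). The median log2 ratio was -0.07, against -0.32 with median centring and 0.01 with the mean of measured probe sets. RXRA, a partner of the RARs in their DNA-binding dimer, had 197 in the knockdown and 200.4 in the control (-0.03), and RXRG, another partner, 155 in the knockdown and 136 in the control (0.19, but below 0 with median centring, quantile normalization and loess centring). The corepressor NCOR1 was at -0.13, the coactivators NCOA1 at 0.02 and NCOA2 at -0.29 (its other measured probe set at -0.67), and the acetyltransferase gene EP300 at -0.12. MED1, a Mediator subunit that binds nuclear receptors, was lowest, with 1666 in the knockdown and 2363 in the control (-0.50), and its other probe set was at -0.39. RERE, a cofactor of retinoic acid signalling in mouse somites, was at -0.30. The nuclear receptor PPARD was at -0.17, and the coregulator genes TBL1X at -0.20, TBL1XR1 at 0.00, NRIP1 at 0.05 and LCOR at 0.06. Other measured probe sets of these genes differed, with 0.81 for LCOR, 0.42 and 0.18 for TBL1X, and -0.34 and 0.27 for TBL1XR1. That of NRIP1 was at -0.08, and another of EP300 was at -0.48. Of 11 genes here with several measured probe sets, 4 had a fainter one at least 2-fold higher (HDAC3, NCOR1, NSD1 and ZNF423). The share among all such genes was the 12.8% given above. The fainter probe sets of HDAC3 (1.02), ZNF423 (1.12) and NCOR1 (1.21) fall short of 2-fold with median centring, which lowers every log2 ratio by 0.25. The fainter NSD1 probe set had 197.1 in the knockdown and 77.1 in the control, which is under the filter signal. It passed the filter through its knockdown value, where it is high, so its place in the count of 4 supports nothing about NSD1.

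Genes known to respond to retinoic acid in the embryonic hindbrain and spinal cord went both ways. Of 30 listed, 23 were matched and 20 measured, with 10 above and 10 below a log2 ratio of 0, 3 at least 2-fold higher and 1 lower, against 3.64% and 1.06% of all measured genes, and a median of 0.03 that was -0.22 with median centring. The 3 were TGM2, a transglutaminase and classical retinoic acid target, with 280 in the knockdown and 82.9 in the control (1.75); the HOX cofactor gene MEIS1 with 423 in the knockdown and 131 in the control (1.69); and the transcription factor gene BHLHE41 with 719 in the knockdown and 321 in the control (1.17). TGM2 is under the filter signal of 118 in the control and passed through its knockdown value. BHLHE41 fell short of 2-fold with median centring (0.92) and quantile normalization (0.99). The 1 lower was HOXB1, named above with its signals, a difference that falls short of 2-fold with quantile normalization and with loess centring. NEUROG2, a proneural factor, was at -0.91, and past 2-fold lower with median centring (-1.15).

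By their brightest probe sets, the other HOX genes of this list lay on both sides of 0. HOXA5 (0.65), HOXB4 (0.51) and HOXB5 (0.47) were above 0, and HOXD4 (-0.40), HOXA3 (-0.26), HOXA4 (-0.19) and HOXB3 (-0.11) below it. These genes set identity along the hindbrain and spinal cord, and of these 7 brightest probe sets that of HOXA5 was past 1.5-fold as deposited. HOXA5 fell short of 1.5-fold with median centring (0.40), quantile normalization (0.53) and loess centring (0.54). HOXD4 was past 1.5-fold lower with median centring (-0.65). Fainter measured probe sets differed: HOXA3 had one at 0.70, opposite in sign, with 170 in the knockdown and 105 in the control. That control value is under the filter signal of 118, so this probe set passed through its knockdown value, where it is high. HOXA5 had a fainter one at 0.10.

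The list of caudal FGF and Wnt genes, whose signals oppose retinoic acid, also holds genes of other kinds, such as TBXT, CDX2 and SOX3. Its measured genes were within 2-fold by the brightest probe set of each. Of 22 listed, 20 were matched and 13 measured, with 7 above and 6 below 0 and a median log2 ratio of 0.09, which was below 0 under each of 3 scalings. CDX2, a caudal homeobox factor, was lowest, with 233 in the knockdown and 423 in the control (-0.86), and past 2-fold lower with median centring (-1.10), quantile normalization (-1.08) and loess centring (-1.07). FGF13 was at -0.47 and SOX3, a progenitor factor, at -0.34, while TBXT, the T-box factor of the tail end and notochord, was highest at 0.40 and the Wnt ligand gene WNT11 at 0.26. A fainter measured probe set of WNT11 was at 1.37, with 249.5 in the knockdown and 96.5 in the control, which is under the filter signal. CYP26A1 is also on this list, though retinoic acid switches it on in many vertebrate tissues.

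**Figure D4:**
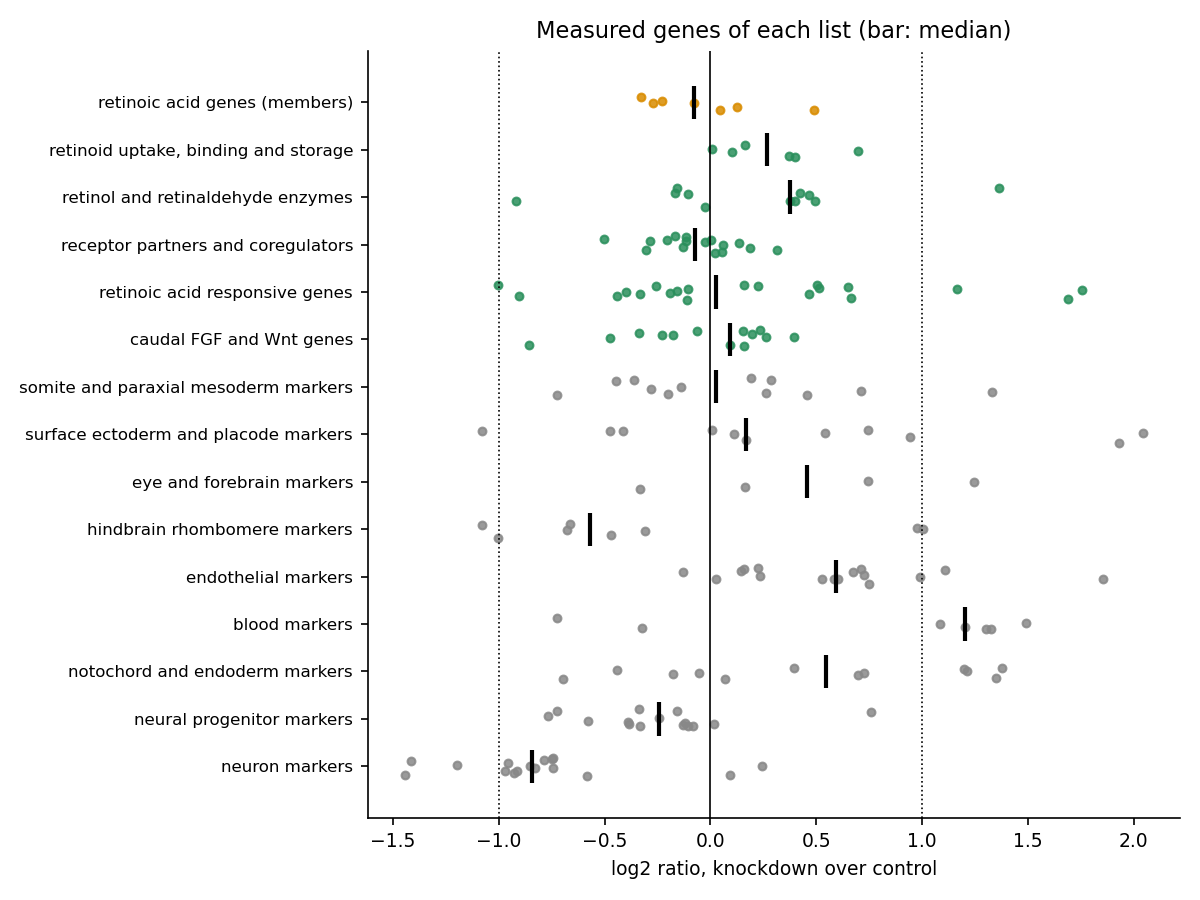
Log2 ratio (knockdown over control) of each measured gene, 1 point a gene by its brightest probe set, for the members (top, gold), 5 retinoid pathway lists (green) and 9 cell type marker lists (grey), with the median as a bar and dotted lines at 2-fold. The members' median is -0.08, the coregulators' -0.07 and the neuron markers' -0.84.

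Markers of other cell types, outside and within the neural tube, were also read. Endothelial markers (16 measured of 20 listed) had a median log2 ratio of 0.59, with 15 of 16 above 0 and a summed signal of 6961 in the knockdown and 4574 in the control. Of all 9303 measured genes, 4850 were above 0. FLT1, KDR, PECAM1, TEK and TIE1 were under the filter signal of 118 in the control. They passed the filter through their knockdown values, where they are high, so the count of 15 supports nothing about the list. SLC4A1 among the blood markers and NOTO among those of notochord and endoderm passed the same way. Faint chicken probe sets leaned above 0 in general, with a median of 0.25 in the signal group at mean log2 signal 7.09. Blood markers (7 measured of 17) had a median of 1.20 and a summed signal of 66973 in the knockdown and 32431 in the control. Notochord and endoderm markers (12 measured of 18) had a median of 0.55 and a summed signal of 16514 in the knockdown and 14389 in the control. Neural progenitor markers (15 measured of 18) had a median of -0.24, and eye and forebrain markers (4 measured of 14) a median of 0.46. The part of any of these in the retinoic acid genes was not tested.

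**Figure D5:**
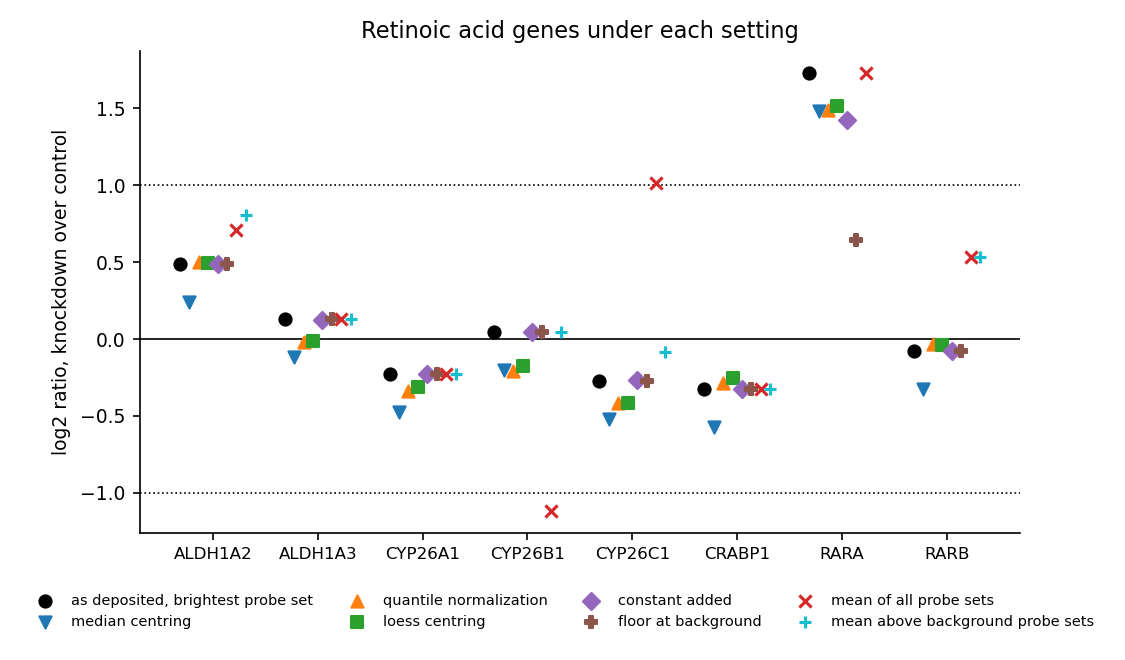
Log2 ratio (knockdown over control) of the 8 matched genes (horizontal axis) as deposited with the brightest probe set and under 7 other settings, with dotted lines at 2-fold. ALDH1A2 stays above 0 and CYP26A1 and CRABP1 stay below 0, while CYP26C1 and CYP26B1 pass 2-fold (1.01 and -1.12) where probe sets at or below background enter a mean.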

How the data were processed

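Gene expression of 2 samples, 1 a group, was measured on an Affymetrix chicken array. The deposited values are linear signal intensities per probe set, for which the submitters' processing notes name MAS5 5.0 (genome build: not given in the sources used here). Trimmed means (2% off each end) were 1000.3 on each array, so the arrays had been scaled. No detection calls were used. Values were taken as deposited, with log2 ratios of knockdown over control.

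Symbols came from the platform annotation, updated through Entrez numbers with a RefSeq table (GRCg7b; names and gene order only). Of 37693 chicken probe sets 18847 were measured. A gene was represented by its probe set of highest mean log2 signal, all probe sets of the members being given too. No test was possible. Python 3.11.15, numpy 2.4.6, pandas 2.3.3 and statsmodels 0.14.6 were used, and the computation was tested on simulated data.

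The members and 14 lists were chosen with earlier results of these data known. Text names every member probe set and measured genes of the 3 lists of retinoid uptake, enzymes and receptor partners. In each other list it names up to 5 measured genes from among those with the largest log2 ratios, not always the largest. Genes named beyond this, such as HOX genes, coregulators' fainter probe sets and genes below background, were chosen after their values were seen. So were LHX3, MNX1, EPHA4, HOXA2, IRX1 and the marker genes under the filter signal. Promoter and protein sequences were not used here. The arrays' number limits precision.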

Additional observations from a re-analysis of the deposited data

How the results depend on the processing

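Alternatives changed the scaling (centring on medians, quantile normalization, a loess fit of span 0.3, addition of 11.3 to all signals, a floor at background), the filter, the fold and the probe set rule. Median centring lowers every log2 ratio by 0.25; quantile normalization and loess centring shift the median of all chicken probe sets by -0.13 and -0.11. ALDH1A2 lay above 0, and CYP26A1 and CRABP1 below 0, under every setting run. ALDH1A3 and CYP26B1 took the other sign under 3 scalings. A value was called moved where it differed from the deposited one by more than the spread between probe sets of a gene at like signal. With median centring CRABP1 was at -0.57 and RARB at -0.32. With the mean of all probe sets CYP26B1 was at -1.12, CYP26C1 at 1.01 and RARB at 0.54, since probe sets at or near background then enter. With the mean of probe sets above background ALDH1A2 was at 0.80 and RARB at 0.54. With the floor at background RARA was at 0.64, and the faint probe set of CYP26B1, at -2.28 as deposited, turned to 0.0495. The count of member probe sets at least 2-fold higher, 2 as deposited, was 1 with median centring, quantile normalization or loess centring, where the fainter ALDH1A2 probe set fell to between 0.87 and 0.90 and RARB stayed, and 4 without a filter; the count of lower ones was then 1. No paired analysis was possible because each group has 1 array, and leaving out a replicate was not possible for the same reason. Faint probe sets limit what can be said of RARA.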

Other observations

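Several genes of the retinoid pathway and its targets were above background on 1 array only. Over the members and the 5 pathway lists, 95 matched genes in all, 8 were above background on the knockdown array only and 1 on the control array only, against 5.16% and 3.08% of all 13008 genes. The 8, named after their values were seen, were RARA, AKR1B10, CDX1, CREBBP, CYP1A1, FGF4, FGF8 and TBX6, and the 1 was STRA8. None of these genes passed the filter on low signal, and the bounds below hold for the values as deposited. FGF8, a caudal FGF ligand that opposes retinoic acid, had 136 in the knockdown and 51.4 in the control, at least 2.13-fold higher. FGF4, another caudal ligand, had 113 in the knockdown and 13.3 in the control, at least 1.78-fold higher. CDX1, a caudal factor induced by retinoic acid in mouse, had 95.5 in the knockdown and 6.2 in the control. CREBBP, an acetyltransferase that serves as coactivator, had 123 in the knockdown and 46.2 in the control, at least 1.93-fold higher.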
